A study of Mus musculus with 8 samples.

Results

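The genes described here belong to the Lin28 and let-7 circuit of embryonic stem cells (ESCs). They are the RNA-binding proteins Lin28a and Lin28b, the ubiquitin ligase and RNA-binding protein Trim71, the chromatin proteins Hmga1 and Hmga2, and the mRNA-binding proteins Igf2bp1, Igf2bp2 and Igf2bp3. Members were found by gene symbol, from a list made with earlier results of these data known, and all 8 symbols were present among the 24421 genes of the count files. Of these 8 genes, 7 had a read in at least 1 library, and Hmga1 was listed at 0 in every library.

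R1 mouse ESCs were compared in 2 states. Undiff cells were kept in mES growth medium, to which the study's methods add leukaemia inhibitory factor (LIF), a cytokine that holds ESCs in the pluripotent state. The labels give embryoid bodies as the tissue of every sample, Undiff included, so whether the Undiff cells were aggregated is not settled by the sources. Day4 cells came from the same line. They were grown as embryoid bodies for 4 days without LIF and then for 4 days with 2 µM retinoic acid (RA), an inducer of differentiation. This dose is from the design text and the methods, and the label of the treatment has mM in place of µM. Neither state carried a transgene or an engineered allele that the labels name, and all cultures descend from this 1 line. RNA of duplicate cultures was read on 2 Oxford Nanopore Technologies (ONT) platforms, which makes 8 libraries in 4 groups of 2 replicates. On the Direct RNA platform the native RNA strand passes through the pore, and on the cDNA platform the RNA is copied and amplified by PCR first. Because both platforms read RNA of the same duplicate cultures, a change seen on both is a repeated reading and not a second set of cultures. An embryoid body is a mixed aggregate. In such bulk RNA, fewer cells of a type and less RNA per cell cannot be told apart.

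Let-7 is a family of microRNAs that repress mRNAs carrying a match to their seed, the bases 2 to 8 of the mature strand. LIN28 proteins bind let-7 precursors, in part through a GGAG motif in the loop, and block their maturation, while let-7 in turn targets the Lin28 mRNAs. Let-7 is known to be scarce in ESCs and to accumulate as they differentiate, and Trim71, Hmga2 and the Igf2bp genes are among its best-known targets. IGF2BP proteins bind mRNAs such as those of Igf2 and Actb and influence their stability, transport and translation.

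The RefSeq table used here (assembly GRCm38.p6) gives the let-7 strand, from the 5′ arm, of 13 mouse precursors. Mirlet7a-2 is not among them. In 12 of them bases 2 to 8 read GAGGUAG, and in let-7j they read GAGGUAU. The following mature strands are shown because they are the regulators to which the members' 3′ untranslated regions (UTRs) are matched. The capitals mark the seed.
mmu-let-7a-5p (locus Mirlet7a-1, chr13:48538239-48538260, minus strand): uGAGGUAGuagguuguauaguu
mmu-let-7g-5p (chr9:106178846-106178867, plus strand): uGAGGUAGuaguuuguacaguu
mmu-miR-98-5p (chrX:151913229-151913250, plus strand): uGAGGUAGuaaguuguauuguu
mmu-let-7j (chr3:140028281-140028304, plus strand): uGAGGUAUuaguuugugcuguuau

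The loop between the arms held GGAG in 9 of the 13 hairpins, and no GGAG was found in the loops of let-7b, let-7c-2, miR-98 and let-7k. For let-7j and let-7k the table lists only the 5′ arm, so there the loop runs from that arm to the hairpin's end. The let-7g hairpin is shown as the kind of precursor that LIN28 proteins bind, with the GGAG of its loop in capitals.
Mirlet7g hairpin (chr9:106178840-106178927, plus strand): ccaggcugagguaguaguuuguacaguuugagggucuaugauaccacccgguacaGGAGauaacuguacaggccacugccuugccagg

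For each protein-coding gene, the 3′ UTR of its longest annotated protein-coding transcript with a complete end was taken (GENCODE vM21 on GRCm38). On its sense strand the DNA letters CTACCTC, which pair with the seed GAGGUAG, were searched. They were found in 8 of 8 members and in 8.84% of all 20966 3′ UTRs (1853). Long 3′ UTRs hold more matches by length alone. Among 3′ UTRs of 0.8 to 1.25 times the same length, the share with a match ran from 8.17% for the length of Hmga1 to 34.0% for that of Igf2bp1. The members are known as let-7 targets, so these matches describe them and were not tested. Trim71, Hmga2, Lin28b and Igf2bp1 each held 4 matches, Lin28a held 2, and Hmga1, Igf2bp2 and Igf2bp3 held 1 each. The match lay in all cases within 1 exon. For each member, the match nearest to the stop codon is given with its flank, 22 bases in all, and its capitals mark the letters that pair with the seed.
Lin28a (chr4:134005189-134005210, minus strand): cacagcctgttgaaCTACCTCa
Lin28b (chr10:45381022-45381043, minus strand): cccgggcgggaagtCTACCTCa
Trim71 (chr9:114512472-114512493, minus strand): acattgcctaagtcCTACCTCa
Hmga1 (chr17:27563278-27563299, plus strand): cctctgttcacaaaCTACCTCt
Hmga2 (chr10:120364224-120364245, minus strand): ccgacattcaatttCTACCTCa
Igf2bp1 (chr11:95961778-95961799, minus strand): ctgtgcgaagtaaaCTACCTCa
Igf2bp2 (chr16:22059473-22059494, minus strand): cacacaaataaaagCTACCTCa
Igf2bp3 (chr6:49086787-49086808, minus strand): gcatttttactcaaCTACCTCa
In 7 of these 8 sites the match is followed by A, the extended form CTACCTCA, which contains the shorter one. All 4 matches of Trim71 had that A, 2 of them near the start of its 3′ UTR at positions 166 and 262 and the other 2 at positions 3591 and 3617, counted in bases after the stop codon. In Hmga2 only the match at position 58 was followed by A, and those at 1295, 1733 and 2591 were not. The map of matches along the 3′ UTRs shows them to scale.

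**Figure D1:**
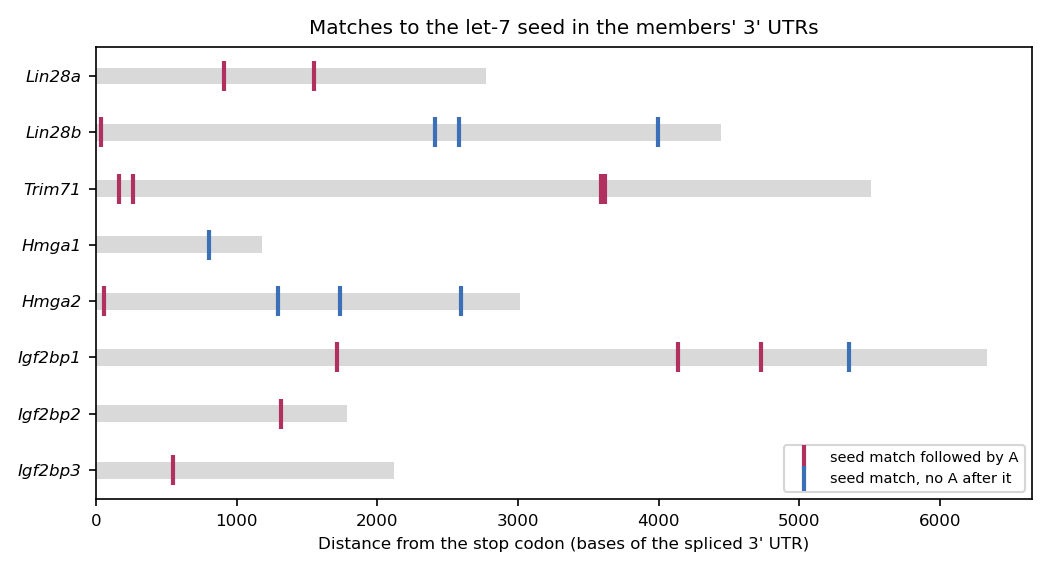
Matches to the let-7 seed along the 3′ UTR of the longest annotated protein-coding transcript of each member. The horizontal axis is the distance from the stop codon in bases, grey bars are the 3′ UTRs, red ticks are matches followed by A and blue ticks matches with no A after them. Trim71, Hmga2, Lin28b and Igf2bp1 carry 4 ticks each, and the pair of Trim71 ticks at positions 3591 and 3617 lies so close that it appears as 1 broad mark.

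Between 283461 and 907489 reads fell on genes in a Direct RNA library and between 948657 and 2088592 in a cDNA library, and replicate 2 was the deeper library in every group. Levels are given as CPM, reads per 1000000 reads on genes. A count of 0 allows a level of up to 3 reads, which is 10.6 CPM in Direct RNA Day4 replicate 1, the shallowest library, and 1.44 CPM in cDNA Undiff replicate 2, the deepest. All 8 pluripotency markers, such as Pou5f1 and Nanog, were called lower at Day4 on each platform. Their summed level was between 10656 and 23522 CPM in the Undiff libraries and between 85.0 and 923 CPM at Day4, so the labelled states match their markers. Of 8 endoderm markers, 5 were called higher in Direct RNA (Gata4, Gata6, Dab2, Afp and Ttr) and 4 in cDNA (the same without Afp), and their sum rose from between 1.05 and 14.3 CPM to between 209 and 1051 CPM. Of 8 mesoderm markers, Hand2, Pdgfra, Tbx5 and Acta2 were called higher on each platform. The 8 together summed to 9.49 to 39.7 CPM in Undiff and to 171 to 452 CPM at Day4. T, Mesp1, Hand1 and Nkx2-5 averaged fewer than the 5 normalized reads needed for a call and did not rise. Hand1 had 9 reads in Undiff and 2 at Day4 in Direct RNA, and 7 and 4 in cDNA. T, Mesp1 and Nkx2-5 had at most 2 reads in a state on either platform. Of 8 neural markers none was called higher, and Tubb3 was called lower on each platform. Their sum was 73.8 to 178 CPM in Undiff, most of it Tubb3 (69.6 to 164 CPM), and 45.3 to 92.2 CPM at Day4, of which Tubb3 had 10.6 to 28.8 CPM. Nes, a marker of neural progenitors, was at 5.74 and 12.1 CPM in Undiff and 38.8 and 54.2 CPM at Day4 in Direct RNA, and at 1.05 and 2.39 CPM and then 11.4 and 15.4 CPM in cDNA. Its states did not overlap, and it was not called (adjusted p = 0.113 and 0.16). Changes of the members below run beside these shifts in cell make-up, whose part in them was not tested.

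**Figure D2:**
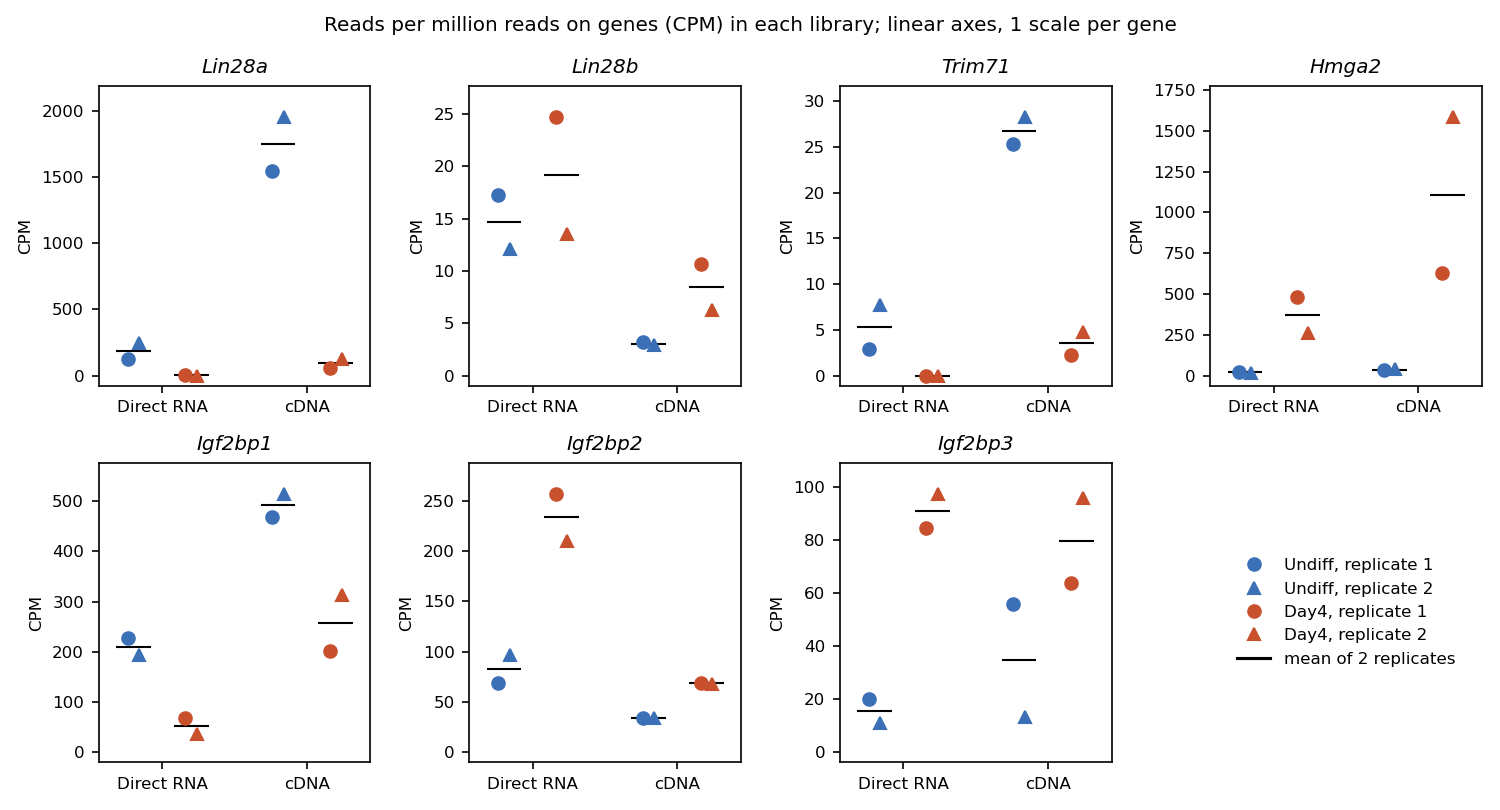
Level of each member with reads in each of the 8 libraries, in CPM on a linear axis with its own scale for each gene. Circles are replicate 1, triangles replicate 2, blue Undiff, red Day4, and black lines the mean of 2 replicates. Lin28a, Trim71 and Igf2bp1 sit lower at Day4 on each platform, and Hmga2, Igf2bp2 and Igf2bp3 sit higher.

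Each platform was tested on its own with DESeq2, and a gene was called with a Benjamini-Hochberg adjusted p of 0.05 or less over all genes, a log2 fold change of 1 or more in either direction and 5 or more normalized reads on average. In Direct RNA 6 members reached that mean, of which 3 were called higher (Hmga2, Igf2bp2 and Igf2bp3) and 2 lower (Lin28a and Igf2bp1). Over all 9646 genes with such a mean, 9.54% were called higher and 7.67% lower. In cDNA 7 members reached it, of which 1 was called higher (Hmga2) and 3 lower (Lin28a, Trim71 and Igf2bp1), against 8.69% higher and 9.24% lower of 10271 genes. With 1 library left out, 1 to 3 members were called in Direct RNA and 2 to 3 in cDNA, and the calls lost are given with each gene. An exact test of 2 against 2 single values cannot give a p below 0.33, so every p here comes from the fits across all genes. Fitted changes are on the scale of DESeq2's size factors, which differs from CPM. Day4 against Undiff is shifted against CPM by -0.10 (log2) in Direct RNA and by -0.33 in cDNA. Scaled to reads on genes instead, an alternative added after the data were seen, 1263 genes were called higher and 655 lower in cDNA, against 893 and 949.

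Lin28a, the LIN28 paralogue that is known to be abundant in mouse ESCs, lies on chr4:134003330-134018841 of GRCm38 on the minus strand (ENSMUSG00000050966.9). Its level in Direct RNA was 123 and 245 CPM in the Undiff replicates, and 7.06 and 0 CPM at Day4. These are 43 and 222 reads against 2 and 0 reads. In cDNA it was 1542 and 1952 CPM in Undiff and 59.2 and 126 CPM at Day4, from 1463 and 4076 reads against 78 and 262. On each platform both Day4 libraries lay below both Undiff libraries. The Direct RNA means were 184 ± 85.7 and 3.53 ± 4.99 CPM (SD, n = 2), and the reads pooled per state gave a ratio of 108 with a 95% counting interval from 29.5 to 894. The cDNA means were 1747 ± 289 and 92.6 ± 47.3 CPM, an 18.9-fold lower level at Day4. Lin28a was called lower in Direct RNA (log2 change of -4.39, SE 1.24, adjusted p = 0.00623) and in cDNA (-4.50, SE 0.41, adjusted p = 1.25e-25). The Direct RNA value is shrunken toward 0, and it was -6.15 unshrunken and -6.51 with edgeR, so the near-equal fitted values do not show equal falls. With 1 library left out, the Direct RNA call was lost without Undiff replicate 1 (-2.64, adjusted p = 0.535) and without Undiff replicate 2 (-2.30, adjusted p = 0.811), and it was -6.44 without Day4 replicate 1 and -4.22 without Day4 replicate 2, while the cDNA call stayed in each case.

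The level of Lin28a left at Day4 was compared with that of the pluripotency markers, as a percentage of the Undiff mean of the same platform. Lin28a was at 3.83% and 0% in Direct RNA and at 3.39% and 7.22% in cDNA. Pou5f1, the transcription factor OCT4 of the pluripotency network, was at 0.335% and 2.96% in Direct RNA and at 0.188% and 3.28% in cDNA. In replicate 1 only Klf4 was above Lin28a, at 6.92% in Direct RNA and 10.7% in cDNA. In cDNA replicate 2, Klf4 (29.4%), Nanog (8.28%) and Sox2 (7.86%) were above Lin28a and the other markers below it. In Direct RNA replicate 2 all 8 markers were above Lin28a. In cDNA the replicate order was the same for Lin28a and all 8 markers, with more left in Day4 replicate 2. In Direct RNA, Lin28a was the lower in replicate 2, where it rests on 2 reads against none, while 7 of the 8 markers were the higher there and Klf4 was the exception. These shares are a description and were not tested.

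**Figure D3:**
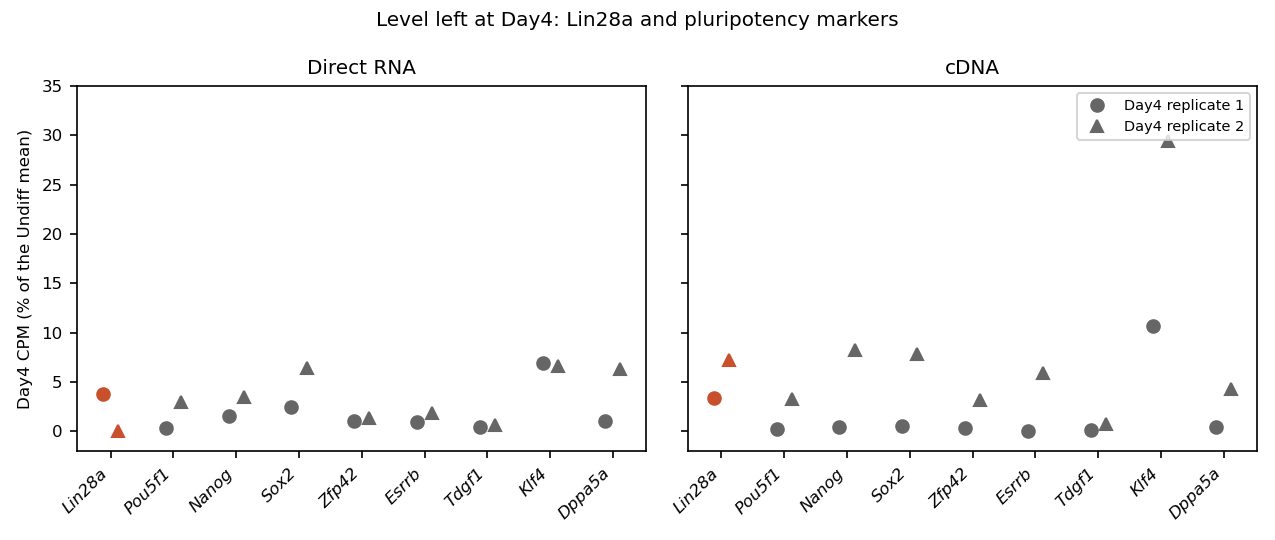
Level left at Day4 of Lin28a (red) and of the 8 pluripotency markers (grey), as a percentage of the Undiff mean of the same platform, with circles for Day4 replicate 1 and triangles for replicate 2. Lin28a lies at 3.83% and 0% in Direct RNA and at 3.39% and 7.22% in cDNA, and Klf4 in cDNA stands highest.

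Lin28b, the second LIN28 paralogue, lies on chr10:45376620-45486395 on the minus strand (ENSMUSG00000063804.8). It was read at low depth, with 3 to 14 reads a library. In Direct RNA it was at 17.2 and 12.1 CPM in Undiff and 24.7 and 13.6 CPM at Day4, and the states overlapped. In cDNA it was at 3.16 and 2.87 CPM in Undiff and 10.6 and 6.26 CPM at Day4, where the states did not overlap and the mean was 2.80-fold higher at Day4. Neither difference passed the test. The log2 fold change was 0.23 in Direct RNA (95% interval -1.63 to 2.08, adjusted p = 0.93) and 1.03 in cDNA (SE 1.04, adjusted p = 0.726). A fall of the size seen for Lin28a lies outside the 95% interval of each.

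The make-up of the LIN28 reads differed between the states accordingly. Lin28b took 12.2% (95% Wilson interval 5.73 to 24.2) and 4.72% (2.66 to 8.25) of the Lin28a and Lin28b reads in the Direct RNA Undiff replicates. At Day4 it took 7 of 9 reads, 77.8% (45.3 to 93.7), and 10 of 10 reads (72.2 to 100). In cDNA its share was 0.205% (0.0696 to 0.600) and 0.147% (0.0674 to 0.320) in Undiff, and 15.2% (9.29 to 23.9) and 4.73% (2.78 to 7.92) at Day4. On each platform both Day4 shares were above both Undiff shares. A share is of reads, with no division by transcript length, so it was compared between libraries and not between genes.

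Trim71, known as LIN-41, is a let-7 target first described in the worm and keeps stem cell programmes active. It lies on chr9:114507133-114564369 on the minus strand (ENSMUSG00000079259.2). Direct RNA gave it 1 and 7 reads in Undiff, 2.87 and 7.71 CPM, and none at Day4. Against a floor of 3 reads over both Day4 libraries this is at least 2.17-fold lower on pooled reads, and with a mean of 1.38 normalized reads the gene was below the minimum for a call (adjusted p = 0.546). Its cDNA level was 25.3 and 28.2 CPM in Undiff and 2.28 and 4.81 CPM at Day4, with 24 and 59 reads against 3 and 10. The cDNA mean was 7.55-fold lower at Day4 and Trim71 was called (log2 fold change -3.02, SE 0.76, adjusted p = 0.0015). The cDNA call was lost without any 1 of the 4 libraries, with log2 fold changes from -3.20 to -2.49 and adjusted p from 0.0505 (without Undiff replicate 1) to 0.129 (without Undiff replicate 2).

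Hmga1, an architectural chromatin protein with AT-hook motifs, lies on chr17:27556497-27563674 on the plus strand (ENSMUSG00000046711.16). It was listed at 0 reads in each of the 8 libraries. Reads set aside for low alignment quality made up 20.4% to 27.98% of the aligned reads of a library, and reads that met more than 1 gene 1.41% to 5.05%. Their part in the zeros was not tested. Hmga1 is known to be expressed in ESCs, and the zeros are not read as absence of its RNA. No level or change of Hmga1 can be given from these counts.

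Hmga2, the paralogue of Hmga1 that is known for its fetal expression, lies on chr10:120361275-120476469 on the minus strand (ENSMUSG00000056758.14). Direct RNA showed a rise from 20.1 and 17.6 CPM in Undiff to 480 and 260 CPM at Day4, that is, from 7 and 16 reads to 136 and 192 reads. The cDNA level rose from 33.7 and 39.7 CPM to 631 and 1584 CPM, from 32 and 83 reads to 832 and 3290. The states were far apart on each platform. The Direct RNA means were 18.9 ± 1.74 and 370 ± 155 CPM (SD, n = 2), 19.6-fold higher at Day4. The cDNA means were 36.7 ± 4.25 and 1107 ± 674 CPM, 30.1-fold higher. Hmga2 was called higher in Direct RNA (log2 change of 4.06, SE 0.50, adjusted p = 7.38e-14) and in cDNA (4.44, SE 0.45, adjusted p = 6.98e-20), and it was called without any 1 library on each platform. In the 3′ UTR this mRNA holds 4 of the let-7 seed matches counted above. So do Igf2bp1, called lower on each platform, Trim71, called lower in cDNA only, and Lin28b, called on neither.

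**Figure D4:**
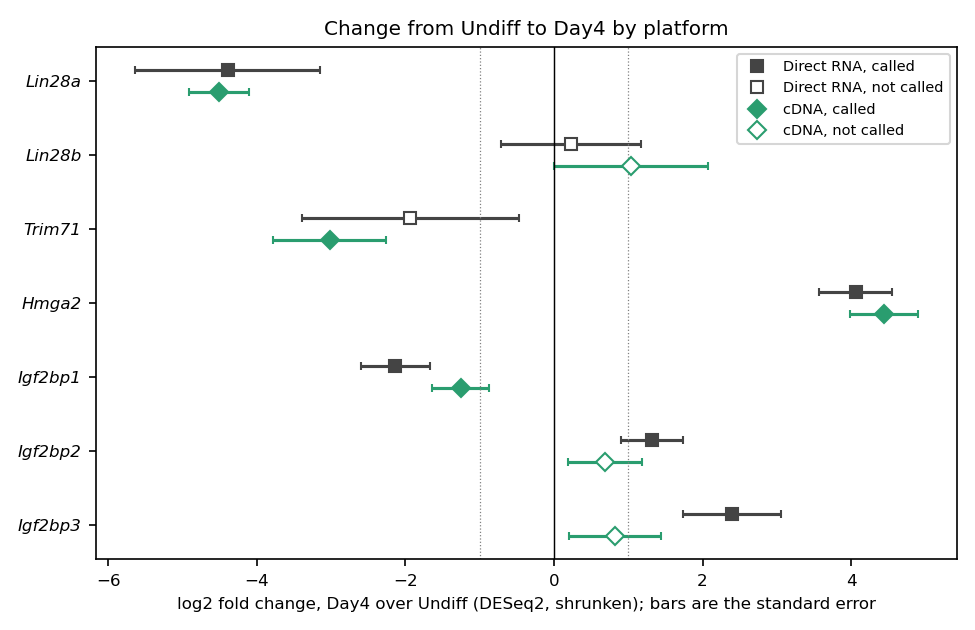
Fitted log2 fold change from Undiff to Day4 for the 7 members with reads, with squares for Direct RNA and diamonds for cDNA. Bars are 1 standard error, filled symbols were called, open ones were not, and dotted lines mark a change of 1 in size. Hmga2 lies at 4.06 and 4.44, Lin28a at -4.39 and -4.50, and the Igf2bp genes lie on both sides of 0.

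The Igf2bp genes did not move together, and Igf2bp1 fell while the other 2 were higher at Day4. Igf2bp1 (IMP1, also ZBP1) lies on chr11:95957163-96005940 on the minus strand (ENSMUSG00000013415.9). Its Direct RNA level fell from 227 and 194 CPM in Undiff to 67.0 and 36.6 CPM at Day4, 4.06-fold. In cDNA it fell from 468 and 515 CPM to 202 and 313 CPM, 1.91-fold. Both Day4 libraries were below both Undiff libraries on each platform. Igf2bp1 was called lower in Direct RNA (log2 change of -2.13, SE 0.47, adjusted p = 0.000147) and in cDNA (-1.26, SE 0.38, adjusted p = 0.012). The Direct RNA call was lost without Undiff replicate 1 (-2.07, adjusted p = 0.0696), without Undiff replicate 2 (-2.13, adjusted p = 0.115) and without Day4 replicate 2 (-1.68, adjusted p = 0.116). The cDNA call was lost without any 1 of its 4 libraries, with values from -1.43 (without Day4 replicate 2, adjusted p = 0.0984) to -0.99 (without Day4 replicate 1, adjusted p = 0.42), and when scaled to reads on genes (-0.92, adjusted p = 0.117).

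Igf2bp2, known for roles in metabolism and in muscle, lies on chr16:22059009-22163299 on the minus strand (ENSMUSG00000033581.17). In Direct RNA it rose from 68.9 and 97.0 CPM in Undiff to 258 and 210 CPM at Day4. Its cDNA level was 33.7 and 33.5 CPM in Undiff and 69.0 and 67.9 CPM at Day4. The states did not overlap on either platform, and the means were 2.82-fold higher at Day4 in Direct RNA and 2.04-fold higher in cDNA. Igf2bp2 was called in Direct RNA (log2 change of 1.32, SE 0.42, adjusted p = 0.0204) and not in cDNA (0.69, 95% interval -0.30 to 1.67, adjusted p = 0.518). The Direct RNA call was lost without any 1 of the 4 libraries, with values from 0.98 (without Undiff replicate 1, adjusted p = 0.561) to 1.58 (without Undiff replicate 2, adjusted p = 0.275).

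Igf2bp3, an oncofetal family member, lies on chr6:49085223-49214957 on the minus strand (ENSMUSG00000029814.10). In Direct RNA it rose from 20.1 and 11.0 CPM in Undiff to 84.7 and 97.6 CPM at Day4, 5.86-fold. In cDNA it was at 55.9 and 13.4 CPM in Undiff and at 63.7 and 95.8 CPM at Day4, 2.30-fold higher in the mean. The cDNA Undiff replicates thus differed from each other by more than replicate 1 differed from either Day4 library. Igf2bp3 was called in Direct RNA (log2 change of 2.40, SE 0.66, adjusted p = 0.0046) and not in cDNA (0.82, 95% interval -0.40 to 2.04, adjusted p = 0.547). The Direct RNA call was lost without any 1 of the 4 libraries, with values from 1.88 (without Undiff replicate 2, adjusted p = 0.483) to 2.57 (without Undiff replicate 1, adjusted p = 0.0608). In cDNA a call appeared without Undiff replicate 1 (2.12, adjusted p = 0.031).

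The make-up of the Igf2bp reads followed these opposite changes. Igf2bp1 took 71.8% (95% Wilson interval 62.8 to 79.4) and 64.2% (58.4 to 69.7) of the Igf2bp reads in the Direct RNA Undiff replicates, and 16.4% (10.7 to 24.2) and 10.6% (7.41 to 15.0) at Day4. In cDNA its share was 83.9% (80.6 to 86.8) and 91.7% (89.9 to 93.1) in Undiff and 60.3% (55.7 to 64.8) and 65.7% (62.6 to 68.5) at Day4. The states did not overlap on either platform. Igf2bp2 went from 21.8% and 32.1% to 62.9% and 61.0% in Direct RNA, and from 6.05% and 5.96% to 20.6% and 14.2% in cDNA. Igf2bp3 went from 6.36% and 3.65% to 20.7% and 28.3% in Direct RNA, and from 10.02% and 2.39% to 19.05% and 20.1% in cDNA. The longest annotated transcripts are 8378 bases for Igf2bp1, 3899 for Igf2bp2 and 4345 for Igf2bp3, and the shares were not divided by length.

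**Figure D5:**
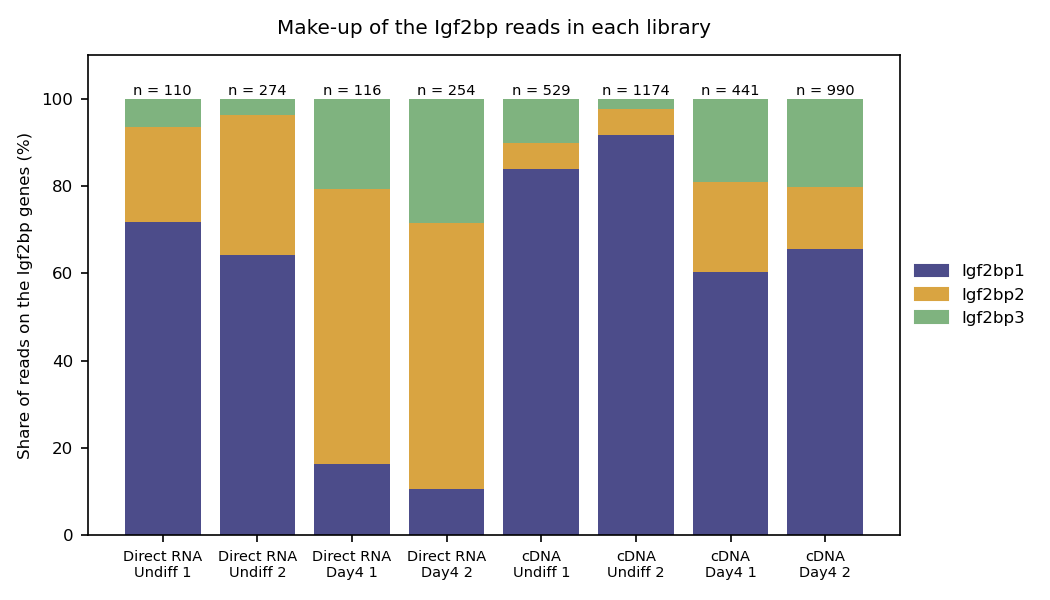
Share of each Igf2bp gene in the reads of the 3 Igf2bp genes, in percent, as stacked bars that start at 0, 1 bar per library with the number of Igf2bp reads above it. The Igf2bp1 share falls from 71.8% and 64.2% to 16.4% and 10.6% in Direct RNA and from 83.9% and 91.7% to 60.3% and 65.7% in cDNA.

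To test whether a change differed between platforms, platform by state was fitted over all 8 libraries with unshrunken fold changes, as cDNA minus Direct RNA. DESeq2 called 0 of the 7 members with reads, all with adjusted p = 1.00, and none had an unadjusted p of at most 0.05. Over all 17267 genes tested it called 0.0116% (2 genes), and 161 had an unadjusted p of at most 0.05. edgeR called 14 genes and 0 members. The smallest unadjusted p were 0.076 for Igf2bp3 (difference -1.73, 95% interval -3.64 to 0.18), 0.0839 for Lin28a (2.01, -0.27 to 4.29) and 0.094 for Igf2bp1 (0.91, -0.16 to 1.98). The calls of Igf2bp2 and Igf2bp3 in Direct RNA only are therefore not shown to differ from cDNA, where for Igf2bp2 the difference was -0.65 (-1.89 to 0.59).

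Platforms were compared with DESeq2's size factors, on which cDNA against Direct RNA is shifted by 0.75 (log2) relative to CPM, so these changes are not ratios of shares of reads. With state as a covariate, 4 members were called higher in cDNA than in Direct RNA and none lower, against 24.7% higher and 26.6% lower of all 10426 genes that reached the mean of 5. Counted over both directions, more genes than not were called, so nothing particular to the members is read from their count. Scaled to reads on genes, 1132 genes were called higher and 4394 lower, against 2572 and 2772. The members called were Lin28a (log2 fold change 4.31, SE 0.42, adjusted p = 5.19e-23), Trim71 (2.87, SE 0.68, adjusted p = 0.000116), Igf2bp1 (2.46, SE 0.26, adjusted p = 2.93e-19) and Hmga2 (2.01, SE 0.32, adjusted p = 6.78e-09), and all 4 were also called when scaled to reads on genes (3.59, 2.17, 1.72 and 1.33). In Undiff the mean CPM of Lin28a was 9.49-fold higher in cDNA than in Direct RNA, that of Trim71 5.06-fold, that of Igf2bp1 2.34-fold and that of Hmga2 1.95-fold, with no overlap between platforms. Igf2bp2 went the other way. Its mean CPM was 2.47-fold higher in Direct RNA in Undiff and 3.42-fold at Day4, and its log2 fold change of -0.83 (SE 0.26, adjusted p = 0.00467) was too small for a call. Scaled to reads on genes it was called lower in cDNA (-1.56, adjusted p = 3.56e-10). Lin28b had -0.83 (95% interval -1.89 to 0.24) and was not called, and with that scaling it was called lower as well (-1.54, adjusted p = 0.014). Igf2bp3 stood at 1.11 (SE 0.50, adjusted p = 0.0687), just outside the threshold, and edgeR called it (1.11, adjusted p = 0.00181), while scaled to reads on genes it was at 0.39 (adjusted p = 0.637). Its platforms overlapped in each state, and the mean CPM was 34.6 in cDNA and 15.6 in Direct RNA in Undiff but 79.8 and 91.1 at Day4, so the order turned. The platforms used different amounts of RNA, 500 ng for Direct RNA and 50 ng for cDNA, and only cDNA was amplified, and these cannot be told apart from the platform itself.

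Exons of 6 members overlap exons of an annotated gene on the opposite strand, while Lin28b and Igf2bp2 have no such overlap. The strand was used in counting Direct RNA reads. For the gene counts of cDNA the setting is not named, while the study's exon counts of cDNA ignored strand, so reads of a member and of its opposite partner may not be separated there. Among the overlapping genes, Malsu1, opposite to Igf2bp3, had 97.6 and 92.6 CPM in Undiff and 74.1 and 90.8 CPM at Day4 in Direct RNA. In cDNA it had 77.0 and 46.9 CPM in Undiff and 48.6 and 41.4 CPM at Day4. Both genes were higher in replicate 1 than in replicate 2 of the cDNA Undiff group, and the part of the overlap in that was not tested. AI413582, opposite to Hmga1, was at 3.53 to 49.5 CPM across the libraries while Hmga1 was at 0.

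The other genes of the circuit were taken from lists by function. In these lists the genes called on both platforms in 1 direction are named by rule, and all other list genes given with values, called on 1 platform or on neither, were chosen after their values were seen. Over all genes that reached the mean of 5 reads, the median log2 fold change was 0.03 in Direct RNA and 0.00 in cDNA. Of 14 genes for cutting, export and loading of microRNA precursors, 12 reached the mean in Direct RNA and 13 in cDNA, and their median log2 fold change was -0.72 and -0.25. Only Prkra, which encodes the DICER partner PACT, was called, and as 9.54% (Direct RNA) and 8.69% (cDNA) of all genes were higher by the same rule, this count is near the background. It rose from 14.3 and 13.2 CPM to 77.6 and 113 CPM in Direct RNA (log2 change of 2.56, SE 0.66, adjusted p = 0.00204) and from 20.03 and 15.3 CPM to 64.5 and 83.3 CPM in cDNA (1.69, SE 0.54, adjusted p = 0.0202).

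LIN28A recruits terminal uridylyl transferases to let-7 precursors, and the tailed precursors are degraded by DIS3L2. All 5 genes of that list reached the mean on each platform, with median log2 fold changes of 0.64 in Direct RNA and 1.72 in cDNA. Zcchc11, the terminal uridylyl transferase TUT4, was called higher in Direct RNA, with 28.7 and 31.96 CPM in Undiff and 123 and 110 CPM at Day4 (log2 fold change 1.75, adjusted p = 0.0185). In cDNA it was at 5.27 and 6.22 CPM in Undiff and at 18.2 and 41.9 CPM at Day4 and was not called (1.90, adjusted p = 0.087). The other 4 genes of the list were called on neither platform, and their fitted changes went in both directions in Direct RNA.

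The let-7 precursor loci themselves were nearly empty, and polyadenylated long reads do not capture mature microRNAs. Of 12 such loci in the files, 10 were at 0 in every library, and the 12 held 18 reads in all. Mirlet7d had 5 reads in Direct RNA and 8 in cDNA, and Mirlet7g had 5 reads, all of them in cDNA Undiff. Of 3 further genes that hold a let-7 locus, Mir99ahg, whose locus includes let-7c-1, was called higher in cDNA. In cDNA it had no read in Undiff and 12 and 47 reads at Day4 (adjusted p = 0.00269), at least 17.6-fold higher against a floor of 3 reads over both Undiff libraries. In Direct RNA it had none in Undiff and 3 reads in each Day4 library and was not called. Wdr82 and Huwe1, which hold other let-7 loci in their introns or next to them, were not called. These counts give no level of let-7.

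Among 28 other mRNAs known as let-7 targets, changes went both ways. In Direct RNA 26 reached the mean, 2 were called higher and 2 lower, and in cDNA 24 reached it, 3 were called higher and 2 lower. Over all genes 9.54% were called higher and 7.67% lower in Direct RNA, and 8.69% and 9.24% in cDNA, so these counts are near the background. The median log2 fold change was 0.25 in Direct RNA and 0.29 in cDNA. Ccnd2, which encodes cyclin D2, rose from 14.3 and 5.51 CPM to 91.7 and 94.9 CPM in Direct RNA (log2 change of 3.08, SE 0.71, adjusted p = 0.000397) and from 12.6 and 8.14 CPM to 221 and 400 CPM in cDNA (4.47, SE 0.51, adjusted p = 4.99e-16). Igdcc3, a cell surface protein of the immunoglobulin superfamily, rose from 5.74 and 11.0 CPM to 67.0 and 85.4 CPM in Direct RNA (2.77, adjusted p = 0.0034) and from 4.22 and 8.62 CPM to 55.4 and 92.9 CPM in cDNA (2.999, adjusted p = 4.97e-05). Cdc34, a ubiquitin-conjugating enzyme of the cell cycle, fell from 591 and 574 CPM to 279 and 247 CPM in Direct RNA (-1.25, adjusted p = 0.000915) and from 120 and 147 CPM to 56.1 and 66.4 CPM in cDNA (-1.42, adjusted p = 0.0121). Ccnd1, cyclin D1, was called lower in Direct RNA (-1.94, adjusted p = 0.0294) and not in cDNA (-0.84, adjusted p = 0.316). Mycn was called lower in cDNA (-1.59, adjusted p = 0.0055) and not in Direct RNA (-0.89, adjusted p = 0.123), and Igf1r was called higher in cDNA (1.91, adjusted p = 0.0296) and not in Direct RNA (1.30, adjusted p = 0.513).

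Of 9 genes of the insulin-like growth factor pathway and known IGF2BP-bound RNAs, 8 reached the mean on each platform. In Direct RNA 3 were called higher and none lower, where 9.54% and 7.67% of all genes were. In cDNA 4 were called higher and 1 lower, against 8.69% and 9.24% of all genes. Igf2, the growth factor after whose mRNA the Igf2bp proteins are named, rose from 8.61 and 49.6 CPM to 1961 and 1234 CPM in Direct RNA (log2 change of 4.91, SE 0.95, adjusted p = 9.73e-06) and from 5.27 and 4.31 CPM to 525 and 915 CPM in cDNA (6.71, SE 0.54, adjusted p = 3.18e-32). H19, the imprinted non-coding RNA next to Igf2, rose from 86.1 and 74.9 CPM to 3270 and 1200 CPM in Direct RNA (4.43, adjusted p = 2.77e-09) and from 75.9 and 20.1 CPM to 967 and 342 CPM in cDNA (3.03, adjusted p = 0.0323). Igf1, the other ligand of the pathway, was called higher on each platform. Direct RNA gave 0 and 1 reads in Undiff against 6 and 19 reads at Day4 (pooled ratio 30.8, 95% counting interval 5.03 to 1263, adjusted p = 0.0409), and cDNA gave 0 and 5 reads against 94 and 185 (5.02, adjusted p = 1.18e-08). Actb, a known IGF2BP1-bound mRNA, was called lower in cDNA (-1.76, adjusted p = 0.0132) and not in Direct RNA (-1.43, adjusted p = 0.486). Its Direct RNA level was 451 and 1750 CPM in Undiff and 589 and 184 CPM at Day4, and the states overlapped.

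Relatives of the members by protein family were also counted, against the same background of 9.54% higher and 7.67% lower in Direct RNA and 8.69% and 9.24% in cDNA. These lists are too short for their counts to be read against it. Of 5 other cold shock domain genes, the family of the LIN28 proteins, Ybx3 fell on each platform. It fell from 459 and 858 CPM to 374 and 218 CPM in Direct RNA (log2 change of -1.28, adjusted p = 0.01) and from 98.03 and 68.5 CPM to 18.97 and 30.3 CPM in cDNA (-2.04, adjusted p = 0.00152), and Ybx1 was called lower in Direct RNA alone (-1.16, adjusted p = 0.000203). Of 8 other high mobility group genes, Hmgb3 rose from 31.6 and 20.9 CPM to 141 and 155 CPM in Direct RNA (2.36, adjusted p = 0.000323) and from 8.43 and 13.9 CPM to 103 and 130 CPM in cDNA (2.93, adjusted p = 1.74e-06). In cDNA Hmgn2 (1.69, adjusted p = 0.0454) and Hmgn3 (2.07, adjusted p = 0.00278) were also called higher. Of 3 other TRIM-NHL genes, the family of Trim71, Trim2 was called lower in cDNA (-2.54, adjusted p = 0.0163) and none was called in Direct RNA.

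For each member with reads, the genes with the most similar pattern were sought as the 3 highest Pearson correlations of log2(CPM + 1) over the 8 libraries, among 6669 genes that averaged 20 or more reads. The 8 libraries form 4 groups that share state, platform and depth, so these coefficients describe the pattern over those groups and carry no p. They compare the shape of a pattern and not its size, so a listed gene may change little. Lin28a was most like Sall4 (r = 0.993), a zinc finger factor of pluripotent cells, followed by Nudcd2 (0.987) and Exosc2 (0.980). The log2 fold changes between states were small for Nudcd2 (-0.60 in Direct RNA and -0.63 in cDNA) and Exosc2 (-0.78 and -0.84). Neither of these 2 genes was called. Sall4 was at 141 and 163 CPM in Undiff and 10.6 and 1.36 CPM at Day4 in Direct RNA, and at 1885 and 2149 CPM and then 78.9 and 217 CPM in cDNA. It thus showed both the fall at Day4 and the higher share in cDNA that Lin28a showed. Sall4 was also the gene most like Igf2bp1 (r = 0.982), followed by Mettl4 (0.981) and Rsl24d1 (0.978).

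The closest genes to Trim71 were Aasdhppt (r = 0.995), Gemin6 (0.994) and Cecr2 (0.993), and those to Hmga2 were Tmx4 (0.993), Bnip3l (0.991) and Rnf182 (0.990). Tmx4, a thioredoxin-related membrane protein, rose from 5.74 and 5.51 CPM to 67.0 and 28.5 CPM in Direct RNA and from 6.32 and 9.58 CPM to 64.5 and 137 CPM in cDNA. It thus shared with Hmga2 the higher value in Day4 replicate 1 of Direct RNA and in Day4 replicate 2 of cDNA. Igf2bp2 was most like Dact3 (r = 0.991), Ctdsp1 (0.986) and Wash1 (0.986). Dact3 was at 8.61 and 15.4 CPM and then 131 and 125 CPM in Direct RNA, against 1.05 and 0.479 CPM and then 12.1 and 10.1 CPM in cDNA, so it too was lower in cDNA in each state. Igf2bp3 was most like Ergic1 (0.968), Cthrc1 (0.956) and 2810013P06Rik (0.955). Lin28b, with 70 reads over all libraries, was most like Ing1 (0.981), Cbfb (0.975) and Man2b1 (0.975).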

How the data were processed

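The authors deposited read counts as whole numbers for each gene symbol, as htseq-count gave them for minimap2 alignments on mm10 with the UCSC annotation of iGenomes and without secondary alignments. No normalization had been applied. Each of the 8 libraries lists 24421 genes and 5 counters of unassigned reads, which entered no library size and no test. Groups and replicate numbers come from the labels, and the study's methods grew replicates separately.

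The members and the lists were chosen with earlier results of these data known, so the counts of called members describe them and are no independent evidence. Named genes are all 8 members, the list genes called on both platforms in 1 direction (at most 6 a list), and the 3 most similar genes of each member with at least 50 reads. The other list genes given with values, and the markers singled out, were chosen after their values were seen.

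The tests used DESeq2 1.42.0 under R 4.3.3 (Wald test, shrunken log2 fold changes, Cook's cutoff and independent filtering off, as in the study's methods), for each platform separately, and over all 8 libraries for platform (state as covariate) and for platform by state (unshrunken, adjusted p only). The fits were tested on simulated counts in which 200 genes had a log2 change of 2. DESeq2 recovered 58% of them in Direct RNA, 75% in cDNA, 42% for platform by state and 92.5% between platforms. A missing call, above all for platform by state, is therefore weak evidence that nothing changed. Alternatives were edgeR 4.0.16 with TMM factors, TMM factors in DESeq2, a filter of 10 reads in 2 libraries, both cutoffs on, unshrunken values, a replicate block, each library left out and, added after the data were seen, scaling to reads on genes. Intervals are at 95%. Those of log2 fold changes are Wald intervals from the fit and include the spread between replicates. Those of shares (Wilson) and of pooled ratios (exact) leave out that spread and cover the counting of reads only. In cDNA, amplified reads are also not separate molecules. The replicates of each group differed beyond sampling noise (chi-square per degree of freedom 2.67 to 14.9), so each library was kept. Coordinates, transcripts and overlaps are from GENCODE vM21 (GRCm38, the assembly of mm10), and microRNAs from RefSeq (GRCm38.p6). Short-read libraries were not analysed here.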

Additional observations from a re-analysis of the deposited data

How the results depend on the processing

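Settings that kept all libraries and had no block changed 1 call of a member between the states, that of Igf2bp1 in cDNA, lost when scaled to reads on genes (-0.92). The count of called genes did move. In Direct RNA it was 1660, and 3267 with edgeR, 843 with the replicate block and 393 to 797 with 1 library left out. In cDNA it was 1842, and 3355 with edgeR and 709 to 1020 with 1 library left out. The member count was 5 in Direct RNA, 2 with the replicate block and 1 to 3 with 1 library left out, and 4 in cDNA, 4 with the replicate block and 2 to 3 with 1 library left out. A group left with 1 library is assumed to vary like the other group, and each such fit has fewer samples. Platform by state called 2 genes, 14 with edgeR, 1 with TMM factors, 1 when scaled to reads on genes, and 0 to 13 with 1 library left out, and no member in any setting.

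Replicate numbers share only a number between states, with correlations of replicate differences of 0.214 in Direct RNA and 0.5 in cDNA over 1395 genes. Under the replicate block, Lin28a (-3.29, adjusted p = 0.184), Igf2bp2 (1.32, adjusted p = 0.131) and Igf2bp3 (2.28, adjusted p = 0.0896) were not called in Direct RNA by DESeq2. Between platforms the correlation was 0.124 in Undiff and -0.416 in Day4. A block with the Day4 numbers crossed, added after the data were seen, called 1 gene for platform by state and 5114 between platforms, against 2 and 5097 with the block as numbered.

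The sign turned only where no call was made and 1 library was left out, for Lin28b in Direct RNA (-0.089 to 0.51, negative without Day4 replicate 1), and for platform by state in Trim71 (-0.35 to 1.39, negative without Direct RNA Undiff replicate 2) and Hmga2 (-0.27 to 0.82, negative without either Day4 replicate 2, -0.01 for the Direct RNA one). The cause was not tested. Igf2bp3 was called between platforms with edgeR (1.11), TMM factors (1.16), the filter (1.08), and without cDNA Undiff replicate 2 (1.32) or cDNA Day4 replicate 1 (1.36). Few reads limit Lin28b and Trim71 in Direct RNA, and nothing can be said of Hmga1.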
